A study of Homo sapiens with 12 samples.

Results

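The sodium-potassium pump subunits described here are 4 genes, ATP1B1, ATP1B2, ATP1B3 and FXYD3, taken by gene symbol from 17687 genes with a named row on the array. ATP1B1, ATP1B2 and ATP1B3 had 1 row each, and FXYD3 had no named row and is not analysed here. The rule selected on the symbol and on signal only where several rows shared it, by keeping the brightest. No measured subunit had more than 1 row, so brightness decided nothing. The 4 genes were picked with results of these same arrays known, so the tests below describe their size and spread and are not independent support.

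The sodium-potassium pump is an ATPase of the cell membrane that carries sodium out of the cell and potassium in. Its alpha subunit binds the ions and splits ATP. The beta subunit, a glycoprotein that crosses the membrane once, carries the alpha subunit to the cell surface and takes part in potassium binding. FXYD proteins are small membrane proteins that tune the affinity of the pump for its ions. In epithelia the pump sits mainly on the basolateral side and holds the sodium gradient that drives other carriers, and beta 1 subunits on neighbouring cells also take part in adhesion.

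Total RNA was measured on 12 single-colour Affymetrix arrays of the sublines LNCaPabl-Abi and LNCaPabl-Enza. Their names point to LNCaP, a widely used human line of luminal prostate carcinoma cells. The labels do not say how either subline was derived or whether it is 1 clone, so each result is about these 2 lines. Abi_Ctrl is LNCaPabl-Abi with the solvent DMSO for 24 h, and Abi_Dex is LNCaPabl-Abi with 100 nM dexamethasone, a synthetic glucocorticoid, for 24 h. Enza_Ctrl and Enza_Dex are LNCaPabl-Enza with the same treatments. Each group held 3 arrays, and whether the triplicates came from separate cultures is not stated, so the p-values reflect array-to-array spread that may be technical in part.

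Levels are deposited log2 values. They ran from 1.66 to 18.6 over all genes and arrays, which is wide for values made by RMA alone, so a fold change is one on the deposited scale. Enza_Ctrl replicate 2 stood apart from the rest, with a median Pearson r of 0.855 with the other arrays against 0.986 to 0.990 for each of the other 11. Its values also spanned a narrower range. Its lower and upper quartiles over genes were 4.94 and 8.74, against 3.98 to 4.06 and 9.96 to 10.06 on the other 11. Main tests are therefore given with 12 arrays and with 11, without that array. RNA was taken from whole cultures, so fewer cells that express a gene and less RNA per cell cannot be told apart. The median gene had a residual SD of 0.43 with 12 arrays and 0.26 with 11. Genes with a limma adjusted p below 0.05 (Benjamini-Hochberg over 17687 genes) are termed called. The 8 measured prostate luminal markers averaged 11.58 to 12.45 per array over the 11 arrays, and no marker list of another cell type averaged above 5.22 on any of them.

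The sequences before the start sites of the 3 measured beta subunit genes are shown to set ATP1B1, which differed most between the lines, beside the other beta genes. Each is the stretch of 250 bases just before the RefSeq start site, on the plus strand of GRCh38.p14, and capitals mark matches to the motifs named after them.
ATP1B1 (chr1:169106440-169106689): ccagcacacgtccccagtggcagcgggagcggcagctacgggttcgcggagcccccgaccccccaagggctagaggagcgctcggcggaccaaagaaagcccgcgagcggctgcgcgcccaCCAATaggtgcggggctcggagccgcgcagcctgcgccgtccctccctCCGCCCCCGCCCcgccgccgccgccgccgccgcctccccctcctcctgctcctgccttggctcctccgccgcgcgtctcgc
ATP1B2 (chr17:7646377-7646626): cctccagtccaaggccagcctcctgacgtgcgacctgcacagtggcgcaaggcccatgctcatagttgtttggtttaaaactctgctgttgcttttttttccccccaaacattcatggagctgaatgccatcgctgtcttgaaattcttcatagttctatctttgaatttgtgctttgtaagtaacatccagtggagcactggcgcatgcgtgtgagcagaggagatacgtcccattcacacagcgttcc
ATP1B3 (chr3:141876393-141876642): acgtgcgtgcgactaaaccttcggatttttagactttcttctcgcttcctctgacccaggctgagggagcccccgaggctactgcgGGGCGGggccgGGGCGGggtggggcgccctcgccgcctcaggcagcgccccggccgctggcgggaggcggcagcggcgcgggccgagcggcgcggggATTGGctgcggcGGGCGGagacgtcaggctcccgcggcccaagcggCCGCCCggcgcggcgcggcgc

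The search covered both strands of the 300-base RefSeq windows, which reach 50 bases past the start. The window of ATP1B1 was 77% G and C and that of ATP1B3 75%, against 49% for ATP1B2 and a median of 58.67% over 35116 RefSeq promoters. ATP1B1 held 1 CCAAT box (CCAAT), 129 bases before the start, and 2 GC boxes (GGGCGG, on the reverse strand) 81 and 75 bases before it. ATP1B3 held 1 CCAAT box on the reverse strand, 67 bases before the start, and 4 GC boxes at 164, 153, 55 and 21 bases before it. No 2 of these matches overlapped. ATP1B2 held no match to any motif searched. Among all promoters of the same length, 34.6% held a CCAAT box and 45% a GC box. TGTTCT, the core hexamer of steroid receptor elements, was matched once, in ATP1B3 at 32 bases after the start and so outside the printed stretch, and 14.8% of all promoters held it. No member held a TATA box (TATAAA, 11.5% of promoters) or the palindrome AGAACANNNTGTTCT, which was found in 0.00285% of promoters. These matches describe letters in the windows and not binding.

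ATP1B1, the beta 1 subunit, was higher in LNCaPabl-Enza than in LNCaPabl-Abi by about 9 to 10-fold on the deposited scale, with DMSO and with dexamethasone. In Abi_Ctrl its log2 levels were 9.82, 9.97 and 9.07, and in Abi_Dex they were 9.85, 9.93 and 9.49. In Enza_Ctrl they were 12.81, 12.53 (replicate 2) and 13.03, and in Enza_Dex 12.67, 13.30 and 13.15. All 6 arrays of LNCaPabl-Enza were above all 6 of LNCaPabl-Abi, Enza_Ctrl replicate 2 included. The group means were 9.62 ± 0.48, 9.76 ± 0.24, 12.79 ± 0.25 and 13.04 ± 0.33 (SD, n = 3) in the same order.

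**Figure D1:**
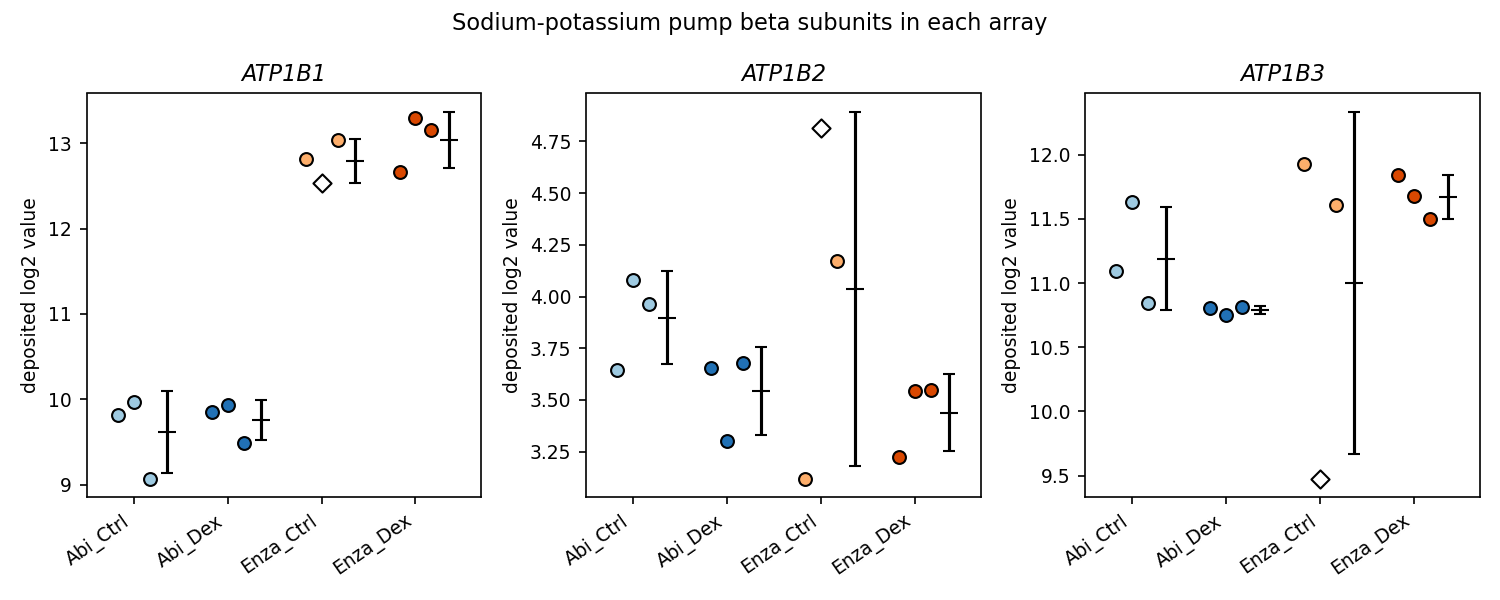
Deposited log2 level (vertical axis, with a scale of its own in each panel) of ATP1B1, ATP1B2 and ATP1B3 in every array, by group along the horizontal axis. Points are arrays, the open diamond is Enza_Ctrl replicate 2, and bars give the mean ± SD of all 3 arrays. ATP1B1 separates the lines without overlap, while the open diamond is the highest ATP1B2 value at 4.82 and the lowest ATP1B3 value at 9.48.

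Between the untreated lines, ATP1B1 differed by 3.17 ± 0.29 on the log2 scale (SE, 95% interval 2.53 to 3.81, a fold of 5.79 to 14.0, limma adjusted p = 0.001107). Without Enza_Ctrl replicate 2 the difference was 3.30 ± 0.27 (SE, 9.86-fold, limma adjusted p = 1.355e-05). Among all genes compared, 0.266% were called with 12 arrays and 1.29% with 11. Only 0.0565% and 0.334% were called in the direction of ATP1B1, higher in LNCaPabl-Enza. Groups that did not overlap in that direction were far more common, at 5.95% and 11.5% of genes.

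Between the dexamethasone-treated lines, ATP1B1 differed by 3.28 ± 0.29 (SE, 95% interval 2.64 to 3.92, 9.72-fold, limma adjusted p = 0.001236), and by the same amount with an SE of 0.24 over 11 arrays (limma adjusted p = 2.402e-06). In this comparison 0.277% of genes were called with 12 arrays and 2.28% with 11, and 0.124% and 0.752% in the direction of higher levels in LNCaPabl-Enza. The treated comparison uses none of the arrays of the untreated one in its means, but both tests share 1 estimate of the spread. Both sets of arrays come from the same sublines, and ATP1B1 was picked with results of both known. Neither comparison is therefore independent support for the other. The call for the untreated lines was lost when only Enza_Ctrl and Abi_Ctrl entered the fit (adjusted p = 0.2035). Leaving out any single array, with or without Enza_Ctrl replicate 2, did not end the call in either comparison.

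The gap between the lines was wide for ATP1B1 among all genes. Its lowest LNCaPabl-Enza array was 2.56 above its highest LNCaPabl-Abi array over 12 arrays, where 0 of the 17687 genes had a larger gap in that direction. Over 11 arrays the gap was 2.70, and 1 gene, MMP16, a membrane-bound matrix metalloproteinase, had a larger one. Over those 11 arrays, 319 genes (1.80%) were higher in every LNCaPabl-Enza array and 560 (3.17%) were lower in every one.

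Dexamethasone gave no called change of ATP1B1 in either line. In LNCaPabl-Abi the difference from DMSO was 0.14 ± 0.29 (SE, 95% interval -0.50 to 0.77), or ± 0.24 with 11 arrays (interval -0.39 to 0.66, limma adjusted p = 0.9288). In LNCaPabl-Enza it was 0.25 ± 0.29 (SE, interval -0.39 to 0.88, limma adjusted p = 0.6277), and 0.12 ± 0.27 with 11 arrays (interval -0.47 to 0.70). The levels with and without dexamethasone overlapped in both lines. The responses of the lines differed by 0.11 ± 0.41 with 12 arrays and by -0.02 ± 0.37 with 11, with an interval of -0.80 to 0.76 in the second. These intervals leave room for changes of up to about 1.58-fold in LNCaPabl-Abi and 1.62-fold in LNCaPabl-Enza with 11 arrays, and a response within them cannot be told from none.

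Few genes of any kind were called in the dexamethasone comparisons, which is the background for these results. In LNCaPabl-Abi, 0.0283% of genes were called with 12 arrays and 0.141% with 11. In LNCaPabl-Enza limma called 0 genes (0.00%) with either set, with 700 and 530 genes at an unadjusted p under 0.05. The absence of calls there does not show an absence of response. The smallest p in LNCaPabl-Enza was that of SGK1 with either set, at 4.55 ± 0.73 and 4.43 ± 0.70 (SE). For the difference between the responses limma also called 0 genes (0.00%), with 266 and 566 at an unadjusted p under 0.05. The response comparisons share DMSO arrays with the comparison of the untreated lines.

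ATP1B3, the beta 3 subunit, was at higher levels in LNCaPabl-Enza than in LNCaPabl-Abi with dexamethasone, by 0.88 on the log2 scale with 12 or 11 arrays, a difference called with 11 arrays and not with 12. Its log2 levels were 11.09, 11.63 and 10.85 in Abi_Ctrl, and 10.80, 10.75 and 10.82 in Abi_Dex. In Enza_Ctrl they were 11.93, 9.48 (replicate 2) and 11.61, and in Enza_Dex 11.84, 11.68 and 11.50. The 3 arrays of Enza_Dex were above the 3 of Abi_Dex, as was the case for 9.43% of genes. Enza_Ctrl replicate 2 was the lowest of the 12 arrays, and the residual SD of ATP1B3 fell from 0.70 to 0.25 without it.

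For the treated lines the difference in ATP1B3 had an SE of 0.51 with 12 arrays (limma adjusted p = 1) and of 0.21 with 11 (95% interval 0.44 to 1.32, 1.84-fold, limma adjusted p = 0.03708). The array left out is in neither group of this comparison, and its omission changed only the shared estimate of the spread and the adjustment. The call with 11 arrays was lost on leaving out any 1 of the 6 dexamethasone arrays as well, with adjusted p-values from 0.05344 without Enza_Dex replicate 3 to 0.1743 without Enza_Dex replicate 1. The untreated lines gave -0.19 ± 0.51 (SE) with 12 arrays and 0.58 ± 0.23 with 11 (limma adjusted p = 0.3361), so the direction turned with that array. Without it, the Enza_Ctrl array at 11.61 still lay just below the Abi_Ctrl array at 11.63.

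With dexamethasone, ATP1B3 in LNCaPabl-Abi was at 10.79 ± 0.03 against 11.19 ± 0.40 with DMSO (SD, n = 3). The 3 treated arrays lay below the 3 untreated ones, as did 6.01% of genes, and the difference of -0.40 ± 0.21 (SE, 11 arrays, interval -0.84 to 0.04) was not called (limma adjusted p = 0.7236). In LNCaPabl-Enza the difference was 0.67 ± 0.51 with 12 arrays and -0.09 ± 0.23 with 11, neither of them called. The difference between the responses was 1.07 ± 0.72 and 0.30 ± 0.31, again without a call.

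ATP1B2, the beta 2 subunit, known from brain where it also acts in adhesion between glia and neurons, was low on every array. Its log2 levels were 3.65, 4.08 and 3.96 in Abi_Ctrl, and 3.65, 3.30 and 3.68 in Abi_Dex. In Enza_Ctrl they were 3.12, 4.82 (replicate 2) and 4.17, and in Enza_Dex 3.22, 3.54 and 3.55. The groups overlapped in all 4 comparisons of group pairs. On each array ATP1B2 was below the mean of the 23 background control rows, which averaged 4.50 to 4.60 on 11 arrays and 5.50 on Enza_Ctrl replicate 2. Whether the ATP1B2 transcript was detected at all is not settled by these files.

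No comparison called ATP1B2. The lines differed by 0.14 ± 0.36 (SE) untreated with 12 arrays and by -0.25 ± 0.27 with 11, and by -0.10 ± 0.24 with dexamethasone (11 arrays, interval -0.63 to 0.42). The responses to dexamethasone were -0.35 ± 0.24 in LNCaPabl-Abi and -0.21 ± 0.27 in LNCaPabl-Enza with 11 arrays. All 4 of these values had limma adjusted p-values of 0.783 or above with 11 arrays.

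**Figure D2:**
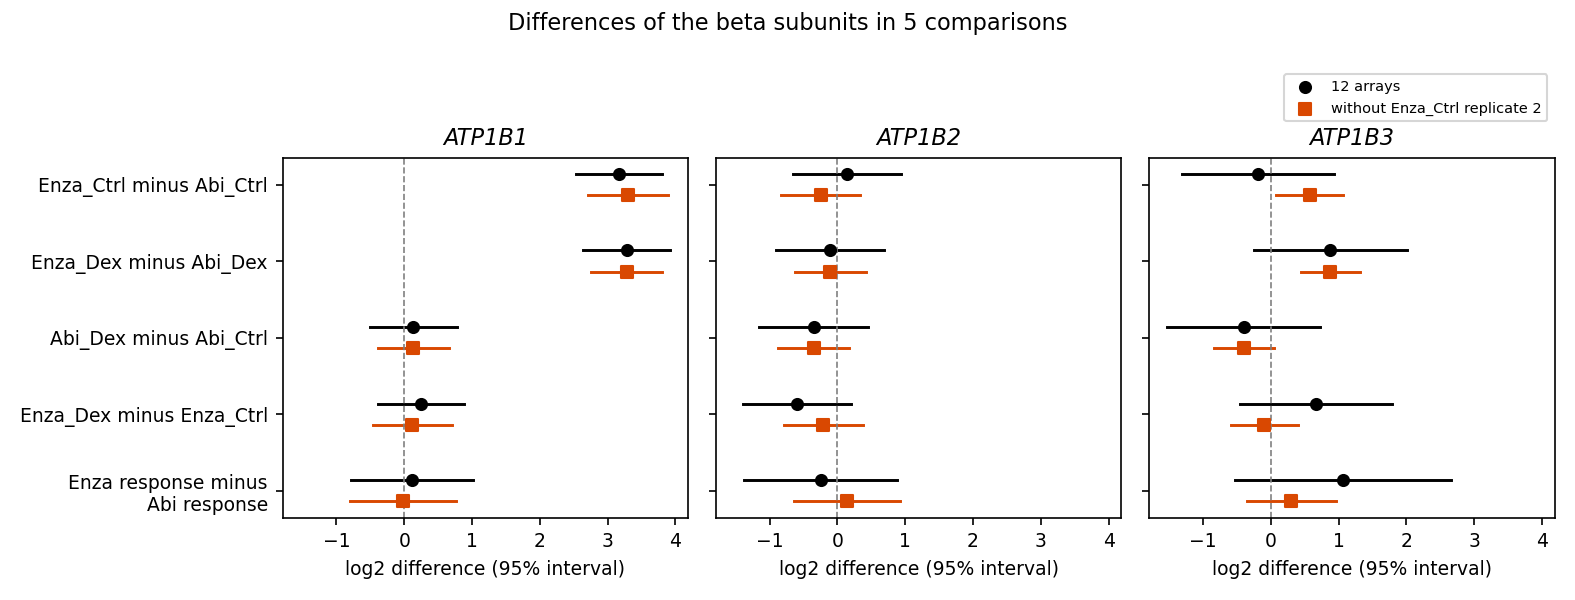
Log2 differences of ATP1B1, ATP1B2 and ATP1B3 (horizontal axis) in 5 comparisons (vertical axis), with points for the estimate and lines for its 95% interval from limma. Black circles use 12 arrays and orange squares 11, without Enza_Ctrl replicate 2. The line differences of ATP1B1 near 3.2 stand clear of 0, the dexamethasone differences of all 3 genes have intervals that include 0, and the ATP1B3 intervals shorten with 11 arrays.

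The other beta and FXYD genes with a row, 5 in all, gave no call in any of the 5 comparisons with either set of arrays. ATP1B4, a beta family gene whose product in mammals is found in the nuclear envelope of muscle, lay between 2.48 and 3.54 on 11 arrays and at 6.08 on Enza_Ctrl replicate 2. FXYD1 (phospholemman), FXYD4, FXYD5 (dysadherin, a regulator also tied to cell adhesion) and FXYD7 were the measured FXYD genes, 4 of 7. FXYD5 spread widely within groups, from 5.93 to 7.67 in Enza_Ctrl. Among the 4, FXYD1 showed the largest difference between responses relative to its error, 0.85 ± 0.35 (SE, 11 arrays, unadjusted p = 0.02773, limma adjusted p = 0.9991). FXYD2 and FXYD6 are not analysed here.

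Among genes of other ion pumps, ATP12A was lower in LNCaPabl-Enza. ATP12A encodes the non-gastric proton-potassium pump, a relative of the alpha subunit that needs a beta subunit as partner. Its log2 levels were 7.08, 7.72 and 6.07 in Abi_Ctrl, 7.23, 8.50 and 6.37 in Abi_Dex, 4.29, 5.90 (replicate 2) and 4.76 in Enza_Ctrl, and 3.96, 4.24 and 3.77 in Enza_Dex. All Enza_Dex arrays were below their background control means (4.53, 4.60 and 4.51), as was Enza_Ctrl replicate 1 (4.59). Enza_Ctrl replicates 2 and 3 were above theirs (5.50 and 4.55). The size of the line differences thus rests in part on levels not shown to be detected. Every LNCaPabl-Enza array was below every LNCaPabl-Abi array, as was the case for 3.17% of genes over 11 arrays. Calls in this direction, lower in LNCaPabl-Enza, took in 0.209% of genes untreated and 0.153% treated with 12 arrays, and 0.956% and 1.53% with 11. The treated lines differed by -3.38 ± 0.58 (SE, limma adjusted p = 0.04258), or ± 0.45 with 11 arrays (limma adjusted p = 0.0006291). The untreated lines differed by -1.98 ± 0.58 (limma adjusted p = 0.2973) and, with 11 arrays, by -2.44 ± 0.50 (limma adjusted p = 0.02442). The 12-array call for the treated lines was lost without Abi_Ctrl replicate 1 or 2, Abi_Dex replicate 1 or 2, Enza_Ctrl replicate 3 or any Enza_Dex array, with adjusted p-values from 0.05136 (Enza_Ctrl replicate 3) to 0.2273 (Enza_Dex replicate 1). ATP4A and ATP4B, the alpha and beta subunits of the gastric proton-potassium pump, were not called.

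KCNMA1, the pore subunit of a large-conductance potassium channel opened by calcium and voltage, also differed by line. It was at 9.01, 9.25 and 8.53 in Abi_Ctrl and at 10.47, 10.56 and 9.88 in Abi_Dex. In Enza_Ctrl it was at 7.11, 5.49 (replicate 2) and 6.60, and in Enza_Dex at 6.54, 7.26 and 6.84. No array of one line overlapped with the other, and 3.17% of all genes were lower in every LNCaPabl-Enza array over 11 arrays. Calls lower in LNCaPabl-Enza took in 0.209% of genes untreated and 0.153% treated with 12 arrays, and 0.956% and 1.53% with 11. In LNCaPabl-Abi, KCNMA1 was higher with dexamethasone by 1.37 ± 0.25 (SE, 11 arrays, limma adjusted p = 0.05032), which was not called. The treated lines differed by -3.42 ± 0.40 (SE, limma adjusted p = 0.004831), which was called under each of 30 alternatives. The untreated lines differed by -2.53 ± 0.40 (limma adjusted p = 0.02899) with 12 arrays and by -2.08 ± 0.28 with 11 (limma adjusted p = 0.001416). The untreated call with 12 arrays was lost without any 1 Abi_Ctrl or Enza_Dex array or Abi_Dex replicate 1 or 2, with adjusted p-values from 0.05712 (Abi_Dex replicate 1) to 0.1651 (Abi_Ctrl replicate 2). It was also lost with renewed quantile normalization (0.08894) and with only the groups compared in the fit (0.6143).

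**Figure D3:**
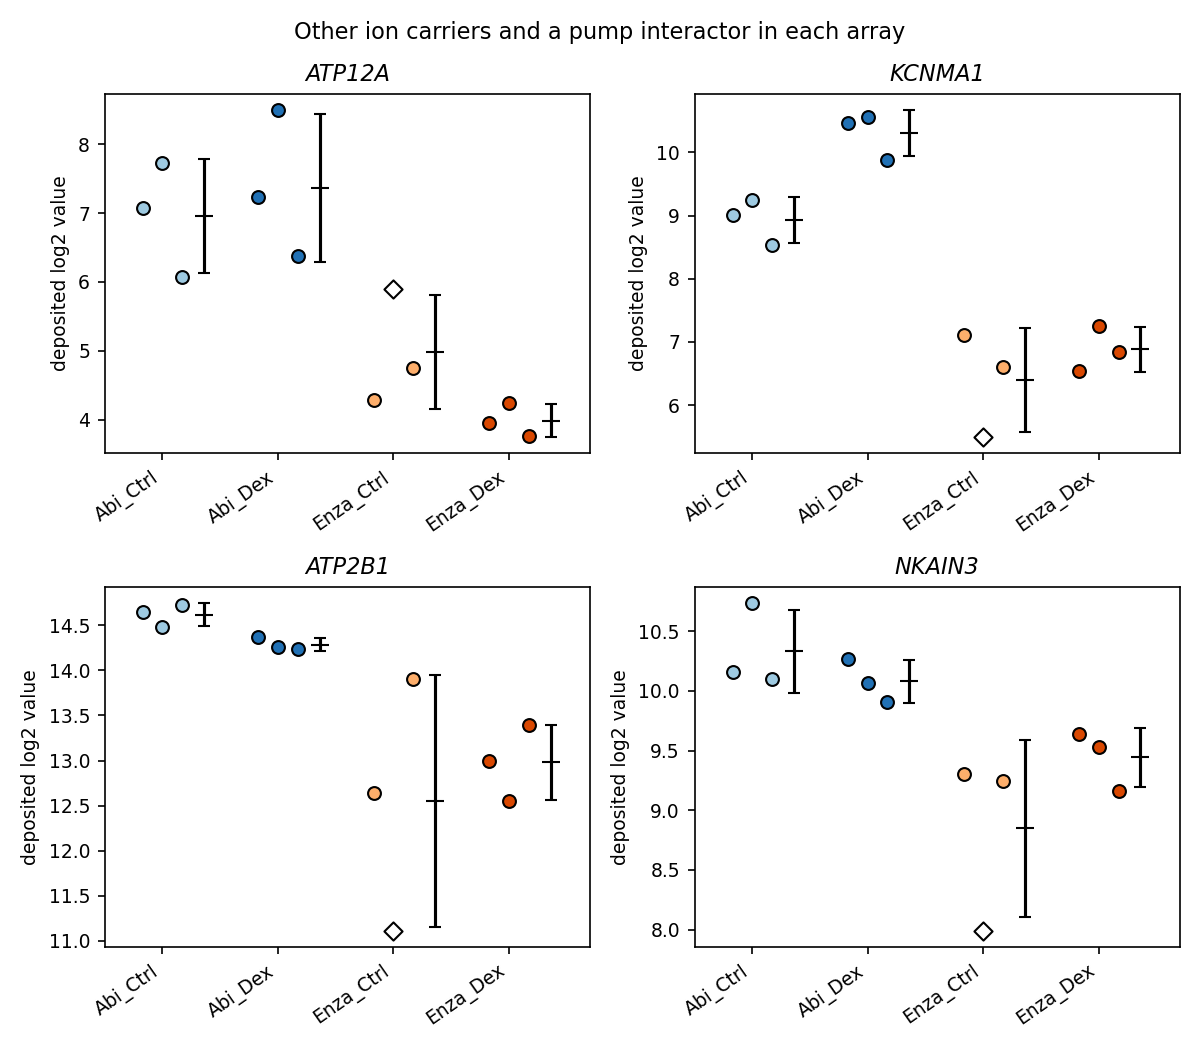
Deposited log2 level (vertical axis, with a scale of its own in each panel) of ATP12A, KCNMA1, ATP2B1 and NKAIN3 in every array, by group along the horizontal axis. Points are arrays, the open diamond is Enza_Ctrl replicate 2, and bars give the mean ± SD of 3 arrays. The 4 genes shown are listed genes called lower in LNCaPabl-Enza with 11 arrays, so their shared direction, opposite to ATP1B1, comes with that choice. ATP2B1 and NKAIN3 were not called with 12 arrays. The open diamond is the lowest array for KCNMA1, ATP2B1 and NKAIN3.

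The lists of related genes are given by their counts of calls. Over all genes and with 11 arrays, 0.334% were called higher and 0.956% lower in LNCaPabl-Enza untreated, and 0.752% higher and 1.53% lower treated. Of 4 measured beta genes, 1 (ATP1B1) was called higher in LNCaPabl-Enza and 0 lower in the untreated lines, and 2 (ATP1B1 and ATP1B3) higher in the treated lines with 11 arrays. Their median difference was 0.25 and 0.63, against -0.0022 and -0.0084 over all genes. ATP1B2 and ATP1B4 were below the mean of the background control rows on these 11 arrays. The medians thus rest in part on genes not shown to be detected. Of 4 measured NKAIN genes, whose products bind the beta 1 subunit, 1 was called, NKAIN3, at -1.06 ± 0.23 (SE, limma adjusted p = 0.03609) in the untreated lines with 11 arrays, and at -0.64 ± 0.21 in the treated lines (limma adjusted p = 0.168). Of 11 calcium and copper pumps, 1 was called lower in each line comparison with 11 arrays. It was ATP2B1, a calcium pump of the plasma membrane, at -1.35 ± 0.31 untreated (limma adjusted p = 0.04783) and -1.31 ± 0.28 treated (limma adjusted p = 0.02045). Neither ATP2B1 nor NKAIN3 was called with 12 arrays.

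Of 13 measured genes of sodium entry, 0 were called in the untreated lines and 2 were lower in the treated lines with 11 arrays, beside 1.29% of all genes called untreated and 1.53% called lower treated. These were SCNN1G, a gamma chain of epithelial sodium channels (-1.63 ± 0.25, SE, limma adjusted p = 0.00226), and SGK1, a kinase that raises sodium channel and pump activity (-2.62 ± 0.63, limma adjusted p = 0.04163). With 12 arrays neither was called in the treated lines (adjusted p = 0.05056 for SCNN1G and 0.3556 for SGK1), and SGK1 was called under 6 of 30 alternatives. Between the untreated lines SCNN1G went the other way, at 0.53 to 1.04 over the 30 alternatives, without a call. SCNN1G and SGK1 were also the only genes of the ion lists called in the response of LNCaPabl-Abi to dexamethasone. Of all genes, 0.0283% were called there with 12 arrays and 0.141% with 11. The differences were 3.15 ± 0.29 for SCNN1G and 7.39 ± 0.73 for SGK1 with 12 arrays (limma adjusted p = 0.00461 for each). Both calls were lost without Abi_Ctrl replicate 2 (adjusted p = 0.05908 and 0.06427). Beside them, ATP1B1 in the same arrays was at 0.14 ± 0.29 and ATP1B3 at -0.40 ± 0.51, neither called.

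Of 10 potassium exit genes, KCNMA1 was the 1 called in each line comparison, beside 0.956% of all genes called lower untreated and 1.53% treated with 11 arrays. Of 9 measured epithelial junction genes, 0 were called in either line comparison with either set. TJP1, a tight junction scaffold, had the smallest p of the junction genes in both, at 0.69 ± 0.23 (SE) untreated and 0.78 ± 0.21 treated (11 arrays, limma adjusted p = 0.06654 for the treated lines). Of 10 measured glucocorticoid target genes, 2 were called lower in LNCaPabl-Enza than in LNCaPabl-Abi with dexamethasone over 11 arrays, SGK1 and ERRFI1, an inhibitor of EGF receptor signalling (-1.14 ± 0.27, limma adjusted p = 0.0376), beside the same 1.53% of all genes. With 12 arrays neither was called (adjusted p = 0.3556 for SGK1 and 0.4223 for ERRFI1), and ERRFI1 was called under 11 of 30 alternatives. These lists were chosen with results of these arrays known, so their counts are descriptions beside the members.

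**Figure D4:**
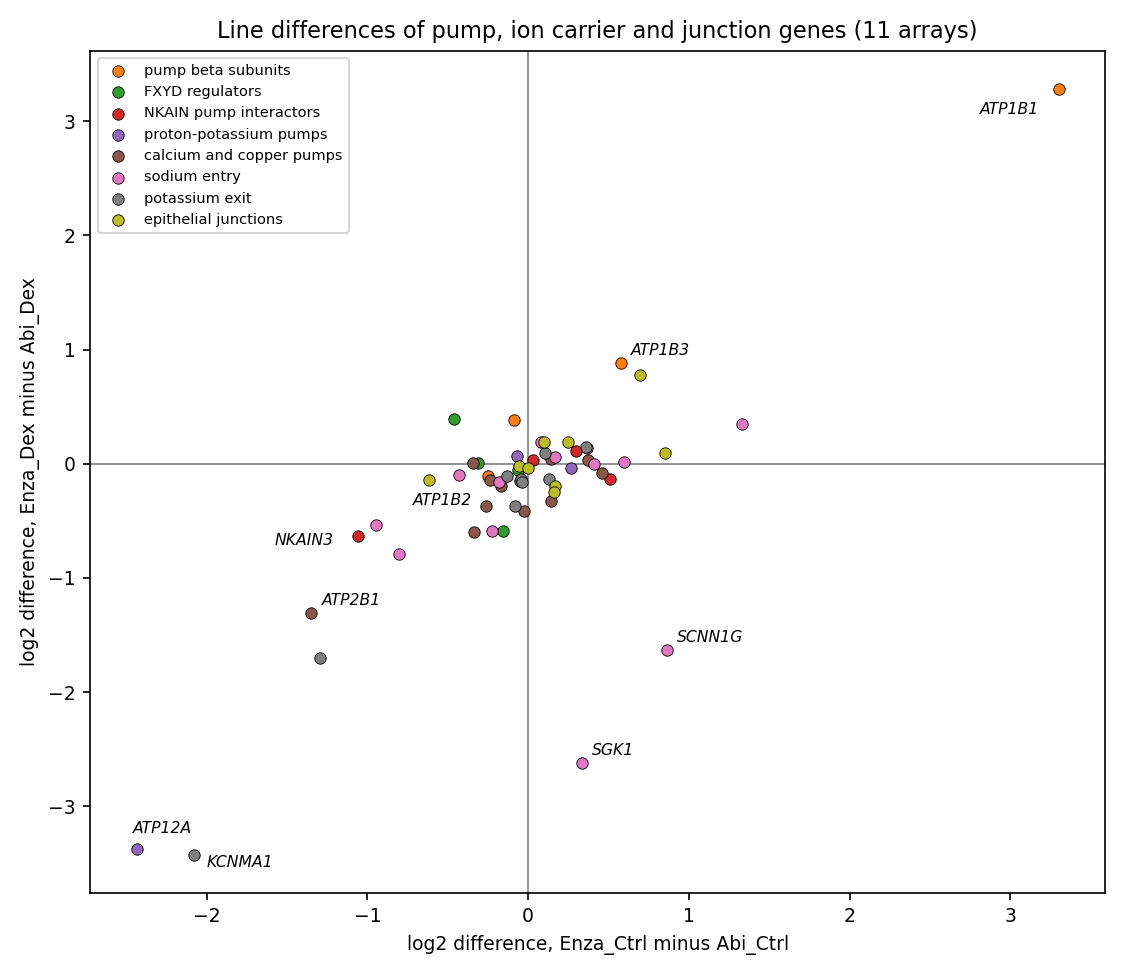
Log2 difference between the treated lines (vertical axis, Enza_Dex minus Abi_Dex) against that between the untreated lines (horizontal axis, Enza_Ctrl minus Abi_Ctrl), for the pump, carrier and junction genes over 11 arrays, 1 point per gene and coloured by list. Labelled genes are the measured beta members and the listed genes called in a line comparison. ATP1B1 is alone at the upper right, at 3.30 and 3.28, and ATP12A and KCNMA1 are at the lower left.

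The 3 genes with the most similar pattern to each member were found by Pearson r over the 11 arrays, which share the line as a source of difference. For ATP1B1 they were MMP16 (r = 0.989), ST8SIA4, a polysialyltransferase (r = 0.980), and CD163L1, a scavenger receptor family gene (r = 0.973). Over deviations from the group means their r fell to 0.52, 0.68 and 0.36. For ATP1B3 they were SCML1 (r = 0.976), RELCH (r = 0.973) and PLS3, an actin bundler (r = 0.961), and within groups these remained at 0.90, 0.89 and 0.85. For ATP1B2 they were MAP3K4 (r = 0.922), ZNF426 (r = 0.904) and ZNF658B (r = 0.890), at 0.92, 0.91 and 0.85 within groups. With Enza_Ctrl replicate 2 the r over all arrays for ATP1B2 was -0.52, -0.51 and -0.06, so its similar genes rest on the choice of arrays. All were picked by r over arrays whose values include the within-group deviations. A high r within groups therefore follows in part from the pick, also for ATP1B2, which was low on every array.

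ATP1B1 and ATP1B3 correlated with each other at r = 0.82 over 11 arrays, at 0.33 over 12 arrays and at 0.33 within groups. MMP16, the nearest in pattern to ATP1B1, averaged 4.98 over the LNCaPabl-Abi arrays and 10.53 over the 5 LNCaPabl-Enza arrays of the set of 11. ATP1B1 averaged 9.69 and 12.99 over the same arrays. Both genes showed no overlap between the lines, and 1.80% of all genes were higher in every LNCaPabl-Enza array of that set.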

How the data were processed

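The values are log2 signals of transcript clusters as deposited by the authors. RMA, Affymetrix Expression Console and limma are listed in the submitters' processing notes with no version, and targets were made from 150 ng RNA, per the labels' protocols. A genome build is not given in the sources used. Rows were named from the platform annotation, and of 24351 rows 17709 had 1 symbol, with 17687 genes kept (brightest row per symbol, which had no bearing on the members). Groups and replicate numbers came from the titles. Tests used limma 3.58.1 (R 4.3.3, lmFit with 4 group means and eBayes, no filter, no block) and were tested on simulated data. The simulated data held no outlying array and no replicate pairing, so they do not show how the tests behave with either. The 5 comparisons were the dexamethasone response of each line, the difference between the responses, and the lines compared untreated and treated. No 2 arrays were identical (highest r 0.996). The number of arrays limits the precision.

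The members and lists were chosen with earlier results of these data known. Named were the members, called genes of each list (otherwise its 2 smallest p), pump genes with a row, and the 3 most similar genes per member. Alternatives were leaving out each array, a replicate block, renewed quantile normalization, a filter on genes in the lowest 0.25 of mean levels, fits of only the groups compared, array weights and the mean of a gene's rows. Leaving out Enza_Ctrl replicate 2 with each other array, and the block without it, were added after seeing the data.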

Additional observations from a re-analysis of the deposited data

How the results depend on the processing

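ATP1B1 was called between the treated lines under each of 30 alternatives and between the untreated lines under 29, the exception being a fit of only the groups compared (3.17, adjusted p = 0.2035). Calls over all genes changed more. Leave-out counts ran from 0 to 29 for the LNCaPabl-Abi response, 0 to 1 for LNCaPabl-Enza, 0 to 1 for the response difference, 11 to 242 untreated and 12 to 459 treated. A fit of only the groups compared gave 22 for the LNCaPabl-Abi response, 0 untreated and 502 treated, and array weights gave 37, 252 and 767. For ATP1B1, leave-outs gave -0.14 to 0.31 for the LNCaPabl-Abi response, -0.013 to 0.43 for LNCaPabl-Enza and -0.19 to 0.39 for their difference. For ATP1B2 they gave -1.06 to 0.32 (LNCaPabl-Enza response), -0.70 to 0.67 (difference), -0.78 to 0.60 (untreated) and -0.23 to 0.0025 (treated). For ATP1B3 they gave -0.25 to 1.13 (LNCaPabl-Enza response), -0.65 to 0.80 (untreated) and 0.80 to 0.97 (treated), and for SGK1 -0.050 to 0.71 (untreated). Renewed quantile normalization gave -0.15 for ATP1B1 and 0.087 for ATP1B2 in the response difference, and -0.19 for ATP1B2 and 0.24 for ATP1B3 untreated. Array weights gave -0.066 for the ATP1B3 response of LNCaPabl-Enza, -0.13 for ATP1B1 and 0.12 for ATP1B2 in the response difference, and -0.23 for ATP1B2 and 0.67 for ATP1B3 untreated. They also called ATP1B3 in the treated lines at 0.90 (adjusted p = 0.005179), as did the fit of only those groups at 0.88 (adjusted p = 0.01378). The causes were not tested. ATP1B2 has no value under the filter on dim genes, because its mean was in the lowest 0.25 of genes.

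The labels do not say that a replicate number marks a shared culture or day, so the main tests have no block. Same-numbered arrays of different groups had residual correlations of -0.04 to 0.30, with 5 of 18 pairs over 0.1. An array correlated best with its own number, among the 3 arrays of another group, in 23 of 36 comparisons, a hint of pairing from the data and not from the design. The 36 comparisons take each pair of groups in both directions and are not independent of each other. With the replicate block, ATP1B1 differed by 3.17 untreated (adjusted p = 0.005304) and 3.28 treated (adjusted p = 0.005527), and 4, 0, 0, 64 and 56 genes were called in the responses of LNCaPabl-Abi and LNCaPabl-Enza, their difference, the untreated and the treated lines. The block without Enza_Ctrl replicate 2 gave 39, 0, 1, 303 and 540. It gave -0.014 for the LNCaPabl-Enza response of ATP1B1 and -0.16 for that of ATP1B3, -0.15 for ATP1B1 and 0.14 for ATP1B2 in the response difference, -0.24 for ATP1B2 and 0.64 for ATP1B3 untreated, and 0.88 for ATP1B3 treated (adjusted p = 0.02381).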
